A study of Mus musculus with 6 samples.

Results

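Synaptotagmins and the SNARE proteins of vesicle fusion were examined in the RNA-Seq of gastrocnemius/plantaris (GP) muscle. The genes were taken by symbol, as every gene in the count files whose symbol begins with Syt, Stx, Vamp or Snap followed by a digit. The rule found 44 of 24421 genes, of which 17 were synaptotagmins (Syt), 15 syntaxins (Stx), 7 VAMPs and 5 SNAPs. One of the latter, Snap91, encodes a clathrin adaptor (AP180) and is no SNARE, and it was kept because the rule reads symbols alone.

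SNARE proteins drive the fusion of a vesicle with its target membrane. A VAMP on the vesicle pairs with a syntaxin and a SNAP protein on the target membrane, and the helices zip into a bundle that pulls both membranes together. Synaptotagmins carry a pair of C2 domains, and those that bind calcium trigger the last step when calcium rises, whereas others of the family bind none. SM proteins such as the Munc18 group guide assembly, and NSF with its SNAP adaptors takes the spent bundle apart. Muscle fibres use these proteins to insert the glucose transporter GLUT4 at the surface, to fuse autophagosomes with lysosomes, to carry cargo through the Golgi and to reseal torn membrane, while the motor nerve ending uses its own set to release acetylcholine.

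The labels name 3 Ctrl mice and 3 cKO mice, 5 months of age and on a B6C3F1 strain background, and the study's methods give them as male. Ctrl mice were Net39 fl/fl without Cre. The cKO mice were HSACreERT2;Net39 fl/fl, in which a tamoxifen-inducible Cre under the human skeletal actin promoter removes the floxed first exon of Net39 in muscle fibres, with no activity in satellite cells or heart. Both groups carried the floxed alleles and received tamoxifen 3 months before tissue was taken. Each library came from the whole GP muscle of 1 mouse and so held RNA of fibres, nerve, vessel, immune and connective tissue cells together.

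Net39, listed as Ppapdc3, went against the labels. It had 310, 321 and 217 counts in the Ctrl-labelled libraries and 5365, 4340 and 6080 in the cKO-labelled ones, a log2 fold change of 4.22 (SE 0.17, edgeR adjusted p = 0.000161). The gene was thus low in every Ctrl-labelled library and high in every cKO-labelled library. The labels were kept as given, and each direction below is that of the cKO-labelled libraries against the Ctrl-labelled libraries and of no genotype. Counts were scaled by library size and TMM factors to CPM, counts relative to a fixed library size, log2 fold changes are labelled cKO over labelled Ctrl, and adjusted p-values come from edgeR's quasi-likelihood test over 14180 genes.

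Total counts were 33860001 to 38201728 in the Ctrl-labelled libraries and 39191239 to 48839910 in the cKO-labelled ones. Several marker sets differed between the labelled groups. The summed level of 12 fibre genes was 108800 to 137800 CPM in the Ctrl-labelled libraries and 174300 to 232400 CPM in the cKO-labelled ones. Of these, 9 passed the test with cKO higher, Myh4 among them at 15350 to 36560 CPM against 57350 to 80130 CPM, Myh1 passed with Ctrl higher (log2 -0.93, adjusted p = 0.0341) and Acta1 did not pass (adjusted p = 0.474). The 9 slow fibre genes summed to 8961 to 15390 CPM against 531.2 to 4080 CPM, and 4 of the 9 passed, all with Ctrl higher. Summed immune markers were 257 to 342.7 CPM against 112.7 to 160.4 CPM, and 9 of the 12 immune markers tested passed the test in that direction. Schwann cell markers summed to 203.9 to 276.4 CPM against 99.75 to 159.9 CPM, and 2 of 9 passed, Pmp22 and Ncam1. The latter is also counted in the next set. Of 12 neuromuscular junction and denervation genes, 5 passed with Ctrl higher and 0 with cKO higher, Myog, Ncam1 and Runx1 among them at log2 -1.89, -1.97 and -1.57, and their sums were 229.2 to 296.4 CPM against 155.7 to 193.5 CPM. Of 9 fibro-adipogenic progenitor genes, 4 passed with Ctrl higher, while their sums overlapped at 1461 to 1716 CPM against 993.9 to 1891 CPM. Mural sums were 386.3 to 408.1 CPM against 325.6 to 341.4 CPM, and 2 of 5 passed with Ctrl higher. For mast cells they were 15.78 to 20.87 CPM against 10.58 to 14.93 CPM (1 of 5, Ctrl higher). Endothelial sums were 453.1 to 462.6 CPM against 396.1 to 433.9 CPM (1 of 7, Ctrl higher). Satellite cell sums were 23 to 23.57 CPM against 27.83 to 34.15 CPM (1 of 5, cKO higher). The 13 neuron markers summed to only 6.395 to 7.865 CPM against 3.979 to 5.999 CPM, with Chat at 0 in every library. Of the 4 tested, 1 passed, Stmn2 with Ctrl higher (log2 -0.77, adjusted p = 0.047). Snap25 and Syt1 among the 13 also belong to the genes examined here. In bulk muscle, fewer cells of a type and less RNA per cell cannot be told apart, and the part of these markers in the results below was not tested beyond the values given.

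Of the 44 genes, 33 passed the expression filter and were tested, namely 8 synaptotagmins, 14 syntaxins, 7 VAMPs and 4 SNAPs. At an adjusted p under 0.05, 6 were higher in the cKO-labelled libraries, 18.2% of those tested against 12.6% of all genes tested, and 5 were higher in the Ctrl-labelled libraries, 15.2% against 11.8%. With counts scaled by library totals alone the split was 4 to 9, where 673 and 4074 of all 14180 genes passed, and that scaling shifted the median over all genes from -0.02 to -0.27 on the log2 scale. At a fold over 2 as well, Syt3, Syt9 and Syt8 were higher in the cKO-labelled libraries, 9.09% against 2.13% of all genes, and Stx11 was higher in the Ctrl-labelled ones, 3.03% against 3.92%. Of these, Syt9 and Stx11 passed the expression filter only through the group where each was high. A minimum of 10 counts in every library removed both from the test. All 3 values of a group lay apart from the other 3 for 11 of the 33 genes with cKO higher, where 22% of all genes did, and for 5 with Ctrl higher, where 21.9% did. The median log2 fold change was 0.03 over the 33 genes and -0.02 over all genes, with 18 values above 0 and 15 below. Signs were thus mixed across the set.

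**Figure D1:**
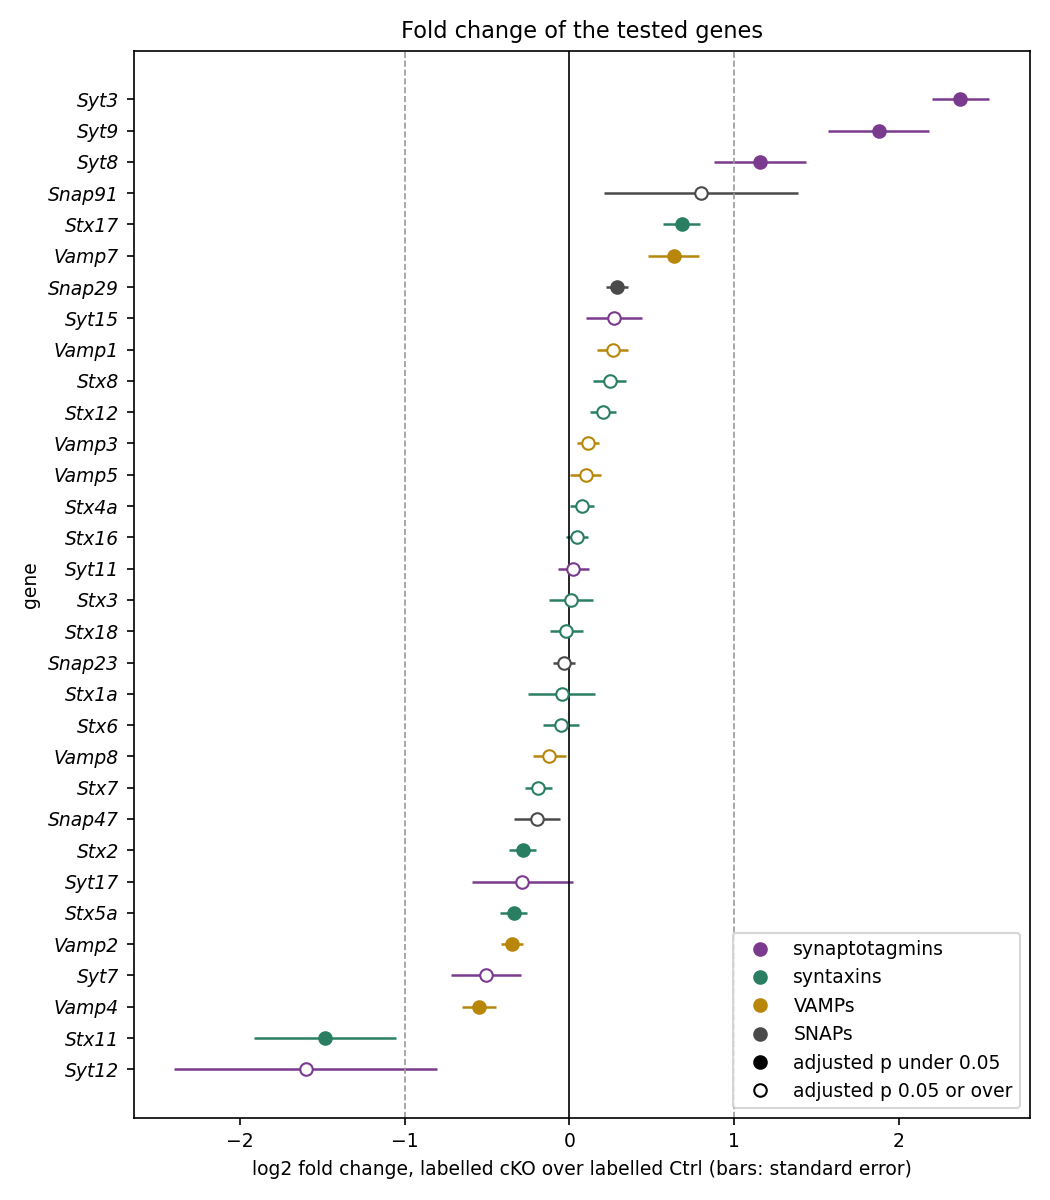
Log2 fold change of the tested genes (x axis, labelled cKO over labelled Ctrl, bars are standard errors), ordered by value and coloured by family, with filled points at an adjusted p under 0.05 and dashed lines at a 2-fold difference. Syt3, Syt9 and Syt8 stand at the top, Stx11 and the scattered Syt12 at the bottom, and most syntaxins, VAMPs and SNAPs lie between the dashed lines.

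The sequence before the start site is shown for the 4 genes past a 2-fold difference, since they carry the largest differences that passed the test. Sequences are from RefSeq on GRCm38.p6, begin 250 bases before the RefSeq start and end 10 bases past the outermost start annotated in RefSeq or GENCODE M21, and are written 5′ to 3′ on the gene's strand. Capitals mark E-boxes (CANNTG, read on both strands), the letters that myogenic factors and many other helix-loop-helix factors bind.
Syt3 (chr7:44383876-44384111, plus strand): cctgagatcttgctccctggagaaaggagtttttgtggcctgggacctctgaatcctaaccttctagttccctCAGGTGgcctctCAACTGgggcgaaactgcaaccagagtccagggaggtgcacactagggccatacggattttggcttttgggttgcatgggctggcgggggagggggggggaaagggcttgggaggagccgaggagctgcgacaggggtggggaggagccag
Syt9 (chr7:107370540-107370737, plus strand): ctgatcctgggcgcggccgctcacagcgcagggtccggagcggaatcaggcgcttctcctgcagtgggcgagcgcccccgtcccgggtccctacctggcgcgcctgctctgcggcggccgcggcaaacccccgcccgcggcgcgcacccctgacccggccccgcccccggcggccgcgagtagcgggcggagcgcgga
Syt8 (chr7:142434600-142434859, plus strand, the first of 3 RefSeq starts): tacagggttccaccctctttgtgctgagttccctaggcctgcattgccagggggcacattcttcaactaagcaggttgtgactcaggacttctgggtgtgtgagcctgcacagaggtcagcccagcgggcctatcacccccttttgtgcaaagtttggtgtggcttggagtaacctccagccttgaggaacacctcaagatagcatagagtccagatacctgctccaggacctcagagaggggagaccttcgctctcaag
Stx11 (chr10:12964289-12964509, minus strand): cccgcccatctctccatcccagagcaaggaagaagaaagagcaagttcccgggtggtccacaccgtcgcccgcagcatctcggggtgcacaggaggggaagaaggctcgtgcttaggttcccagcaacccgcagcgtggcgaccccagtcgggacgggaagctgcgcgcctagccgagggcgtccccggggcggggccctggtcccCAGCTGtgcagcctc

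Upstream of Syt3 lay 2 E-boxes, CAGGTG and CAACTG, 177 and 165 bases before the RefSeq start. Stx11 held 1, CAGCTG, 44 bases before the RefSeq start, and its last base falls on the start annotated in GENCODE M21. Neither Syt9 nor the first Syt8 stretch held one, while windows of 300 bases at the other Syt8 starts held 2 each. Windows of 300 bases, 250 before and 50 after each start, were matched for 33 of the 44 genes, 44 windows in all. An E-box was present in 68.2% of these windows and in 72.3% of the 32851 windows of all genes, and CAGCTG, which is one form of E-box, in 29.5% and 16.3%. Each window was counted on its own, so genes with several starts, such as Syt6 and Stx7, gave CAGCTG more than once from overlapping windows. Some genes with the motif, such as Syt6, were below the expression filter. The GC box GGGCGG was found in 68.2% against 35.7%, TATAAA in 4.55% against 13.6%, the AP-1 letters TGANTCA in 6.82% against 7.81%, and the MEF2 motif in 0 of 44 windows against 3.19%. Median GC content was 61.8% for the tested genes with a window, 70.7% for the 7 untested ones and 52.7% for all genes with a window, tested or not. These are counts of letters in short windows and say nothing of binding.

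Synaptotagmins held the largest differences that passed the test. Of the 8 tested, 3 were past the threshold with cKO higher (37.5%, against 12.6% of all genes) and 0 in the other direction (against 11.8%). Syt3, which binds calcium with high affinity and is known from synapses, had 33, 46 and 36 counts in the Ctrl-labelled libraries and 165, 195 and 245 in the cKO-labelled ones, or 0.843, 1.11 and 0.985 CPM against 4.66, 5.06 and 5.57 CPM. The lowest cKO-labelled library was thus over 4 times the highest labelled Ctrl, and the difference was 5.19-fold (log2 2.38, SE 0.17, adjusted p = 0.000731). Per kilobase of exon its level was 0.314 CPM in the Ctrl-labelled libraries and 1.63 CPM in the cKO-labelled ones, and over all libraries only Syt11 and Syt12 were higher in the family. Syt3 lies on chromosome 7 at 44384102 to 44400187, plus strand, and shares no exon bases with another gene. It was past the threshold in all 12 alternative settings.

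Syt9, a calcium sensor of synaptic and dense-core vesicle release, had 16, 9 and 13 counts in the Ctrl-labelled libraries and 35, 54 and 54 in the cKO-labelled ones, or 0.409, 0.217 and 0.356 CPM against 0.988, 1.4 and 1.23 CPM. The groups did not overlap, and the difference was 3.68-fold (log2 1.88, SE 0.31, adjusted p = 0.0075). The gene stayed near 1 CPM even where it was high, and a filter of at least 10 counts in every library removed it from the test.

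Syt8, a member of the family that does not bind calcium, rose by 2.23-fold at a similarly low level. Its counts were 10, 13 and 15 in the Ctrl-labelled libraries and 28, 26 and 32 in the cKO-labelled ones, or 0.255, 0.314 and 0.41 CPM against 0.79, 0.675 and 0.727 CPM (log2 1.16, SE 0.28, adjusted p = 0.0247). The groups stood apart, but the adjusted p was 0.0808 to 0.0918 without Ctrl 1, Ctrl 2, cKO 1 or cKO 3. On the same strand of chromosome 7, Syt8 ends 1412 bases before Tnni2, which encodes fast skeletal troponin I and had 4585, 5757 and 5195 CPM against 8629, 7242 and 8645 CPM (adjusted p = 0.0199). The part of reads from that neighbour in the Syt8 count was not tested.

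The other synaptotagmins did not pass the test. Syt11, which binds no calcium and is tied to endocytosis and lysosome traffic, was the highest of the family per kilobase, at 2.52 CPM over all libraries. Its values were 14.4, 12.3 and 12.3 CPM against 13.6, 12.9 and 13.3 CPM, which overlapped (log2 0.03, SE 0.10, adjusted p = 0.873). Syt7, the high-affinity calcium sensor of lysosome exocytosis and membrane repair, had 6.72, 5.62 and 5.09 CPM against 3.61, 5.35 and 3.32 CPM. Only cKO 2 fell within the range of the Ctrl-labelled libraries, and the log2 fold change of -0.51 (SE 0.21, adjusted p = 0.125) became -0.76 (adjusted p = 0.0274) without that library.

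Syt12, which also lacks calcium binding, had the highest coefficient of variation of the 33 tested genes in both groups. It had 11, 15.5 and 1.81 CPM in the Ctrl-labelled libraries and 5.73, 1.07 and 2.59 CPM in the cKO-labelled ones, with a coefficient of variation of 74% and 76%. Ctrl 3 lay below cKO 1 and cKO 2 was lowest of all, so the groups overlapped and the log2 fold change of -1.6 (SE 0.80) did not pass (adjusted p = 0.184). Without Ctrl 3 it was -2.09 (adjusted p = 0.0466), while without Ctrl 2 it was -1.04 (adjusted p = 0.442) and without cKO 1 it was -2.37 (adjusted p = 0.135). Median coefficients of variation were 8.8% and 7.88% over the 33 genes and 10.6% and 10.7% over all genes tested. Syt15 and Syt17 were at 2.09 to 3.08 CPM and 0.227 to 0.358 CPM, with adjusted p-values of 0.281 and 0.538.

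The classic sensors of the nerve ending were at or near 0. Syt1 had 0 to 4 counts per library, Syt2, the main calcium sensor of motor nerve endings, 0 to 5, and Snap25, the neuronal SNAP, 0 to 2. Syt10 had 0 counts in all 6 libraries, which allows up to 3 counts in each for counting error. Syt4, Syt5, Syt6, Syt13, Syt16 and Stx19 had at most 5 counts in any library and Syt14 3 to 10. These 11 genes were below the filter and were not tested. In CPM the groups did not overlap for Syt1 (0, 1 and 0 counts against 1, 4 and 2) or Syt2 (5, 3 and 4 against 0, 0 and 3), though their counts met at 1 and 3. At such counts even groups that lie apart rest on a few reads.

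**Figure D2:**
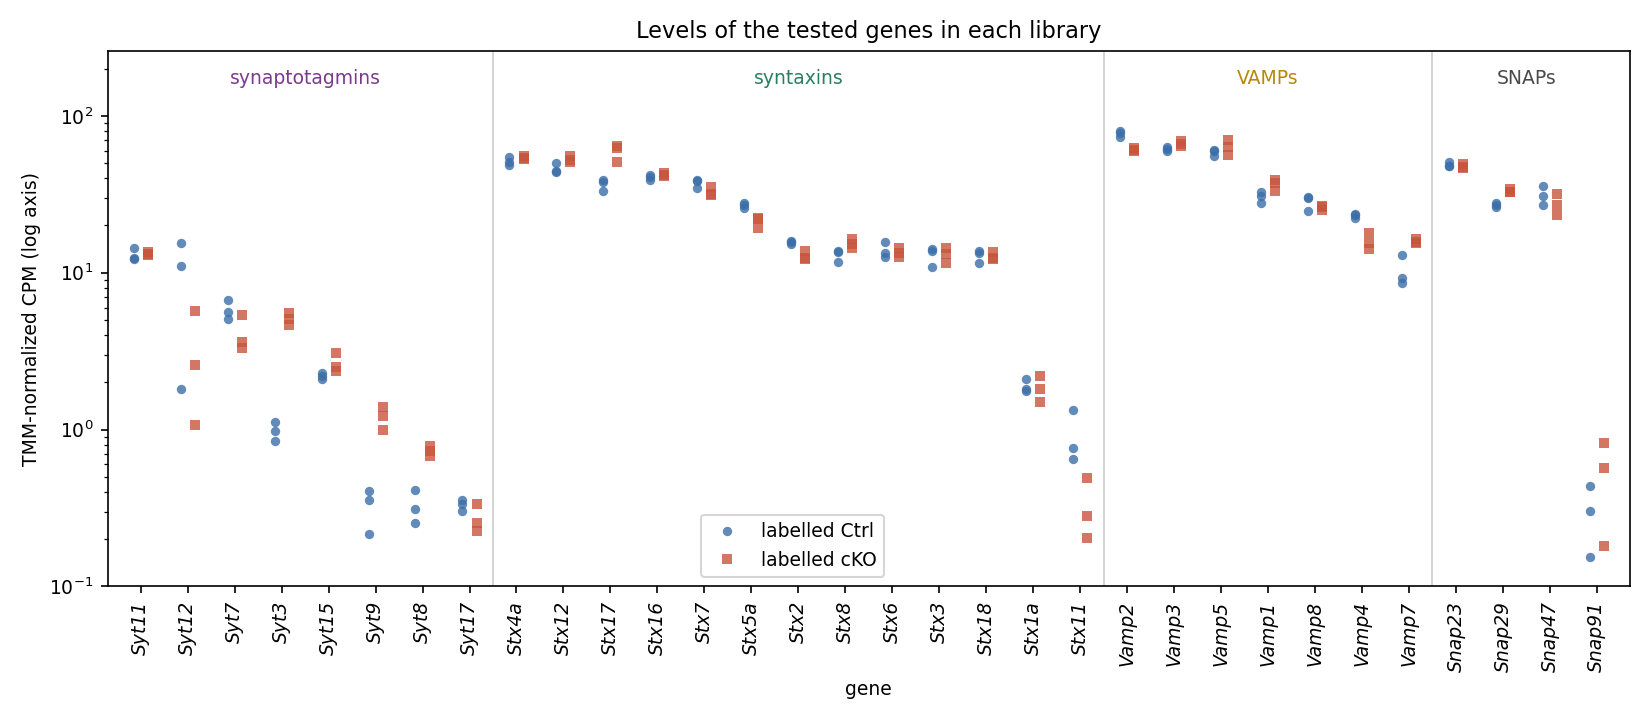
TMM-normalized CPM (log axis) of the tested genes in each library, grouped by family and ordered by mean, with circles for Ctrl-labelled libraries and squares for the cKO-labelled ones. Points of a group mostly lie close together, Syt12 and Snap91 are spread widely, and Syt3, Syt9 and Syt8 separate by group at low levels.

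Among syntaxins, 1 of 14 was higher in the cKO-labelled libraries (7.14%, against 12.6% of all genes) and 3 were higher in the Ctrl-labelled ones (21.4%, against 11.8%). Stx17, the SNARE that autophagosomes carry for fusion with lysosomes, had 33.2, 38.1 and 39 CPM in the Ctrl-labelled libraries and 62.3, 50.8 and 64 CPM in the cKO-labelled ones. All 3 cKO-labelled libraries were above all labelled Ctrl, a 1.61-fold difference (log2 0.68, SE 0.11, adjusted p = 0.00753) that was past the threshold in all 12 alternatives. Its means were 36.8 ± 3.12 CPM and 59 ± 7.17 CPM (SD, n = 3).

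Stx11, known for the release of lytic granules by cytotoxic lymphocytes, fell by 1.49 on the log2 scale in the cKO-labelled libraries. It had 30, 27 and 49 counts in the Ctrl-labelled libraries and 10, 19 and 9 in the cKO-labelled ones, or 0.766, 0.652 and 1.34 CPM against 0.282, 0.493 and 0.205 CPM (2.8-fold lower, SE 0.43 on the log2 scale, adjusted p = 0.0447). The groups did not overlap, but Ctrl 3 held nearly as many counts as the other two together. Without Ctrl 3 the log2 fold change was -1.12 (adjusted p = 0.105), and the adjusted p was also past 0.05 without Ctrl 1, Ctrl 2, cKO 1 or cKO 3, at 0.0639 to 0.135. The immune markers, whose sum is given above, were lower in the same libraries, with Ptprc (CD45) at 5.18, 4.2 and 6.48 CPM against 2, 4.08 and 3.02 CPM (adjusted p = 0.0772, not past the threshold), and Cd3e of T cells at 3 to 16 counts in any library. Their part in the Stx11 values was not tested.

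Stx5a, the syntaxin of traffic into and through the Golgi, had 27.7, 26 and 26.9 CPM in the Ctrl-labelled libraries and 21.9, 22.4 and 19.4 CPM in the cKO-labelled ones. The groups stood clearly apart in a small difference (log2 -0.34, SE 0.08, adjusted p = 0.0274). Stx2, a plasma membrane syntaxin also called epimorphin, had 15.9, 15.7 and 15.2 CPM against 12.5, 12.3 and 13.7 CPM (log2 -0.28, SE 0.08, adjusted p = 0.047). Stx2 lay close to the threshold, and leaving out any single library gave an adjusted p of 0.0671 to 0.142. For Stx5a it was 0.0502 to 0.0961 except without cKO 2, where the gene still passed.

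The syntaxins most abundant per kilobase did not pass the test. Stx4a, the surface syntaxin at which GLUT4 vesicles dock, was at 22.3 CPM per kilobase over all libraries and had 48.4, 54.3 and 51 CPM against 52.7, 53.8 and 55.7 CPM (adjusted p = 0.467). Stx12, of recycling endosomes, had 43.5, 44.3 and 49.7 CPM against 52.4, 50.6 and 55.2 CPM, groups that lay apart by less than 1 CPM (log2 0.20, SE 0.08, adjusted p = 0.106). Without Ctrl 3 it was 0.27 (adjusted p = 0.0484), and with total counts it turned to -0.05.

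Stx16, of the trans-Golgi network, had 40.9, 39.1 and 42.3 CPM against 43.2, 41.9 and 41.3 CPM (adjusted p = 0.639). Stx7, of late endosomes, had 39, 34.9 and 38.3 CPM against 31.8, 35.4 and 31.2 CPM (log2 -0.19, adjusted p = 0.14). Both overlapped between groups. Stx8, Stx18, Stx6, Stx3 and Stx1a had log2 fold changes of -0.05 to 0.24 and adjusted p-values of 0.119 to 0.969, and the neuronal Stx1a was at or below 2.18 CPM in every library.

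Among the 7 VAMPs, Vamp7 was higher in the cKO-labelled libraries (14.3%, against 12.6% of all genes), and Vamp2 and Vamp4 were higher in the Ctrl-labelled ones (28.6%, against 11.8%). Vamp7, a SNARE of late endosomes and lysosomes, had 8.66, 9.19 and 12.9 CPM in the Ctrl-labelled libraries and 15.7, 15.6 and 16.4 CPM in the cKO-labelled ones (log2 0.63, SE 0.16, adjusted p = 0.0269). Values were tight in the cKO-labelled libraries, while Ctrl 3 reached above the other two labelled Ctrl. Without Ctrl 1, Ctrl 2, cKO 1 or cKO 3 the adjusted p was 0.0716 to 0.0881, and with total counts it was 0.0976. GENCODE M21 annotates a processed pseudogene, Vamp7-ps, on chromosome 2, and the part of reads shared with it in the Vamp7 count was not tested.

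Vamp2, which serves synaptic vesicles in neurons and GLUT4 vesicles in muscle and fat, was lower in the cKO-labelled libraries. It had 80.1, 77.7 and 73.1 CPM in the Ctrl-labelled libraries and 60.1, 59.3 and 62 CPM in the cKO-labelled libraries (1.27-fold lower, log2 -0.35, SE 0.07, adjusted p = 0.0135). The groups were separated by over 10 CPM. The adjusted p was 0.0561 without Ctrl 1 and 0.0521 without Ctrl 2.

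Vamp4, a SNARE of the trans-Golgi network and its endosomes, had 22.3, 23.7 and 23.4 CPM in the Ctrl-labelled libraries and 15.5, 14.1 and 17.8 CPM in the cKO-labelled ones. It was 1.47-fold lower (log2 -0.55, SE 0.10, adjusted p = 0.0114), with the groups well apart, and was past the threshold in all 12 alternatives.

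Vamp5, named myobrevin for its place in muscle, and Vamp3, the cellubrevin of recycling endosomes, were with Stx4a the most abundant per kilobase of the genes with a known length. Over all libraries Vamp5 was at 22.5, Stx4a at 22.3 and Vamp3 at 22.2 CPM per kilobase. Vamp5 had 59.7, 60.8 and 55.9 CPM against 56.2, 62.9 and 69.9 CPM (adjusted p = 0.475), and Vamp3 had 59.5, 61.5 and 63.7 CPM against 66, 64.6 and 69.2 CPM (log2 0.11, adjusted p = 0.263). Both therefore overlapped or nearly touched between groups.

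Vamp8, the lysosome-side partner of Stx17, had 29.9, 30.5 and 24.6 CPM against 26.7, 24.9 and 26.4 CPM (log2 -0.12, adjusted p = 0.401). Vamp1, the VAMP of motor nerve endings, had 27.7, 30.6 and 32.6 CPM against 37.2, 33.1 and 38.7 CPM, with groups that did not overlap but an adjusted p of 0.0831 (log2 0.26, SE 0.09).

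Of the 4 SNAPs tested, Snap29 passed the test, with cKO higher (25%, against 12.6% of all genes). Snap29, which joins Stx17 and Vamp8 in the autophagosome-lysosome complex, had 26.4, 27.1 and 28 CPM in the Ctrl-labelled libraries and 34.4, 32.7 and 32.7 CPM in the cKO-labelled ones. The SD was 0.787 CPM and 1.01 CPM and the gap between the groups was larger (1.22-fold, log2 0.29, SE 0.07, adjusted p = 0.0229). The adjusted p was 0.0721 to 0.0872 without Ctrl 1, Ctrl 2, cKO 1 or cKO 3, and with total counts the log2 fold change was 0.04 (adjusted p = 0.734).

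Snap23, the SNAP found in most cells at the plasma membrane, was highest of its family per kilobase at 11.2 CPM and had 48.2, 47.6 and 50.5 CPM against 49.5, 47.1 and 46.3 CPM (log2 -0.03, SE 0.07, adjusted p = 0.745). Snap47 had 31, 35.6 and 27.2 CPM against 31.6, 23.3 and 26.9 CPM (adjusted p = 0.339). Snap91 had 6 to 18 counts against 7 to 29 (adjusted p = 0.351). None of the 3 separated by group.

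**Figure D3:**
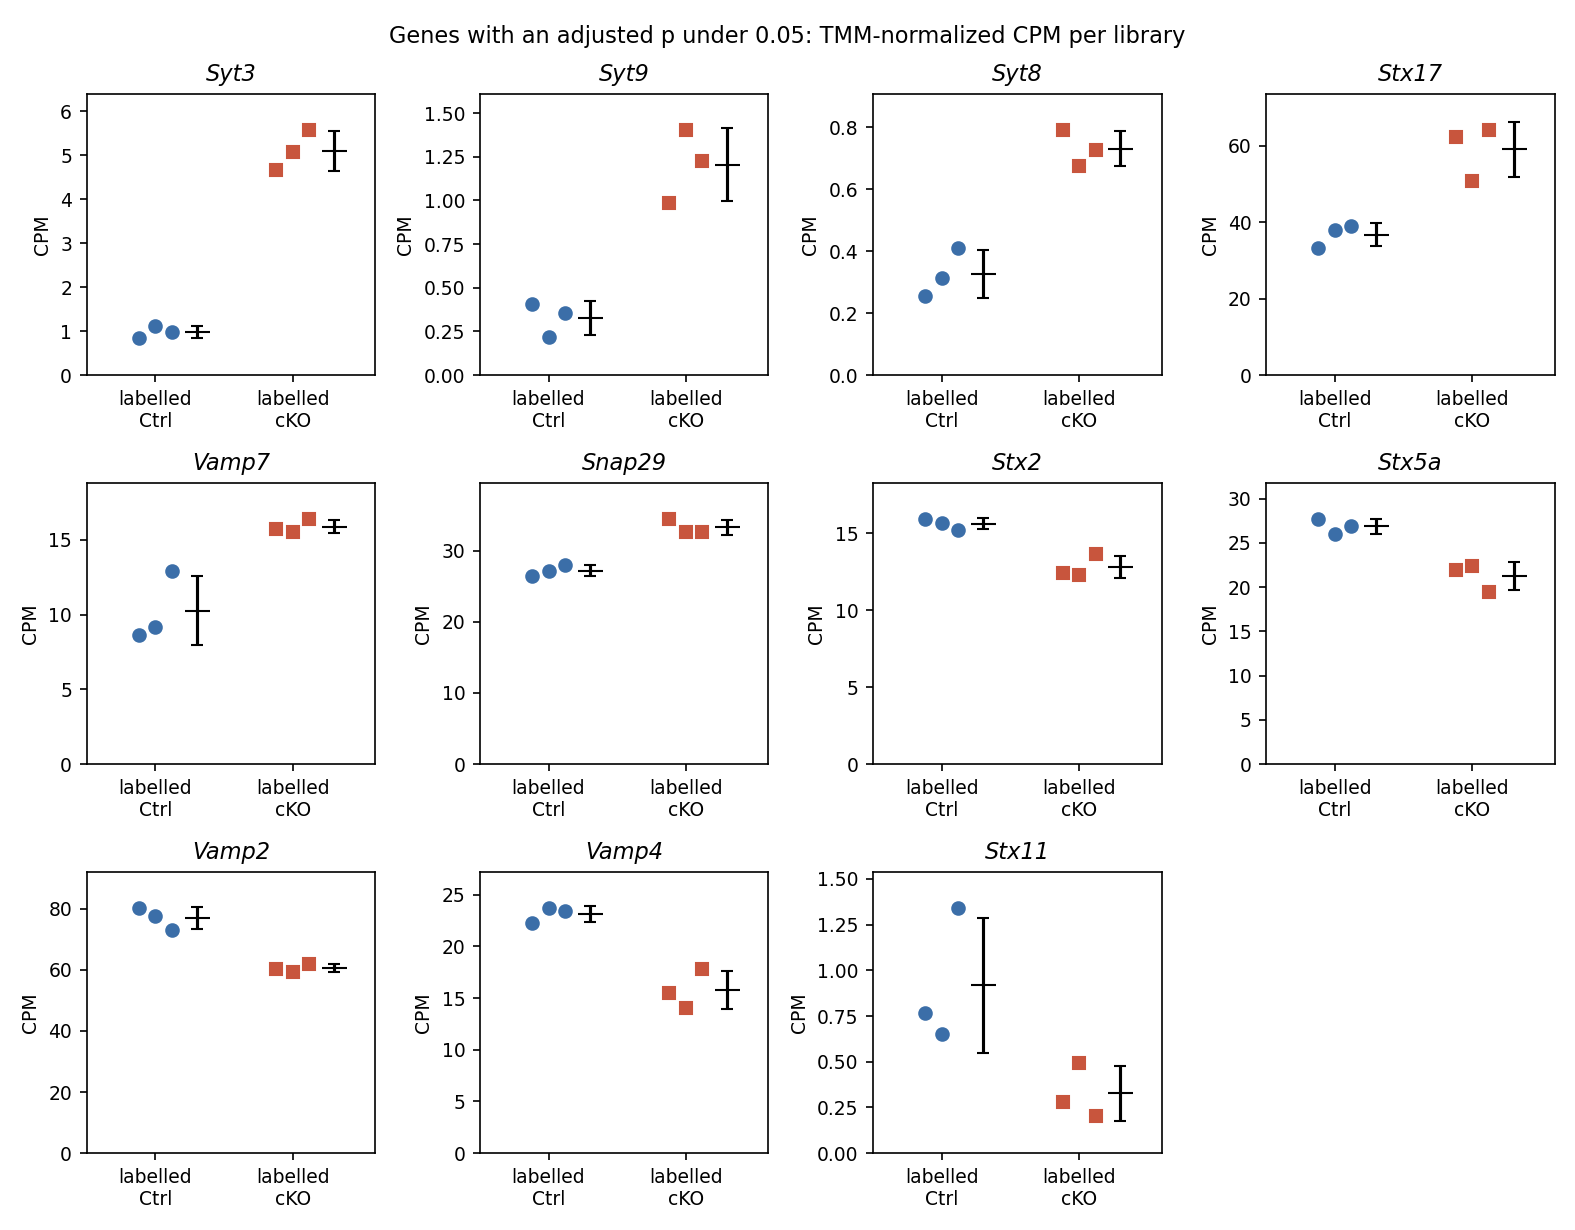
TMM-normalized CPM of the 11 genes with an adjusted p under 0.05, 1 panel a gene with its own axis from 0; points are libraries (3 labelled Ctrl, 3 labelled cKO) and the dash with bars beside them is the mean and SD. The groups do not overlap in any panel, and the gaps are wide for Syt3 and Syt9 and narrow for Stx2.

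The genes can be set side by side by the machinery they form, in groupings chosen after the values were seen and given without a test. In autophagosome-lysosome fusion, Stx17 and Snap29 were higher in the cKO-labelled libraries (log2 0.68 and 0.29), Vamp8 did not pass (-0.12), and Vps33a, the SM protein of the tethering complex at lysosomes, was higher at 48.9, 51.1 and 51 CPM against 80.9, 64.2 and 77.2 CPM (log2 0.56, SE 0.10, adjusted p = 0.00918). In GLUT4 insertion, Vamp2 was lower (-0.35), neither Stx4a (0.08) nor Snap23 (-0.03) passed, and Stxbp3 (Munc18c), the SM protein of syntaxin 4, was higher at 22, 24.2 and 30.6 CPM against 36, 44.1 and 36.7 CPM (log2 0.61, SE 0.14, adjusted p = 0.0225). With total counts Stxbp3 did not pass (log2 0.36, adjusted p = 0.119). Stxbp4, which also binds syntaxin 4, was higher (log2 1.37, adjusted p = 0.0108). Within each complex some members passed the test and others did not, and in GLUT4 insertion those that passed did so in opposite directions.

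In lytic granule release, Stx11 and the priming factor Unc13d (Munc13-4) were lower in the cKO-labelled libraries. Unc13d had 6.56, 9.05 and 9.52 CPM against 0.734, 1.2 and 0.75 CPM (log2 -3.23, SE 0.25, adjusted p = 0.000862). Stxbp2 and Rab27a, which act in the same step, overlapped between groups, with means of 4.05 and 4.9 CPM for Stxbp2 (adjusted p = 0.449) and 4.59 and 4.89 CPM for Rab27a (adjusted p = 0.892). At the Golgi and trans-Golgi network, Stx5a and Vamp4 were lower (-0.34 and -0.55), Stx16 (0.05), Stx6 (-0.05), Gosr1 (-0.15), Gosr2 (0.13), Bet1 (0.13), Bet1l (-0.37), Ykt6 (0.12) and Sec22b (-0.14) did not pass (adjusted p-values of 0.107 to 0.765), and Vti1a, which pairs with Vamp4, was higher (log2 0.28, SE 0.07, adjusted p = 0.0323), though without any 1 library its adjusted p was 0.0525 to 0.141.

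Seen by level, VAMPs and syntaxins made up most of the set. With CPM per kilobase summed over the genes of known length, VAMPs held 41%, syntaxins 40.3%, SNAPs 15.5% and synaptotagmins 3.17%, with Vamp7 left out for want of a matched length. The median over the tested genes was 2.95 CPM per kilobase. The genes past a 2-fold difference all lay below it, from 0.148 for Stx11 to 0.974 for Syt3. Vamp5 and Vamp8 are neighbours on chromosome 6, and Syt5, Syt3, Syt9, Syt17, Stx4a and Syt8 share chromosome 7.

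A list of other vesicle fusion genes was followed beside the 44. It held 73 genes in the files, of which 56 were tested, 11 were higher in the cKO-labelled libraries (19.6%, against 12.6% of all genes) and 5 in the Ctrl-labelled ones (8.93%, against 11.8%), with a median log2 fold change of 0.08. Of 11 SM proteins and syntaxin-binding proteins tested, 4 were higher in the cKO-labelled libraries (36.4%, against the same 12.6%) and 0 lower. Stxbp4 (Synip), which binds syntaxin 4, led them with 20.9, 28 and 19.8 CPM against 81.2, 41.8 and 54.3 CPM (log2 1.37, SE 0.25, adjusted p = 0.0108), with every cKO-labelled library above every one labelled Ctrl. Stxbp5 (tomosyn) was higher by a smaller margin (log2 0.36, SE 0.09, adjusted p = 0.0255).

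Of the disassembly genes, the ATPase Nsf overlapped between groups, at 22, 22.9 and 22.4 CPM against 22.9, 23.4 and 22.5 CPM (log2 0.03, SE 0.07, adjusted p = 0.778), while its adaptor Napg was higher (log2 0.39, SE 0.11, adjusted p = 0.0417) and Napa was not past the threshold (log2 0.30, adjusted p = 0.0655). Among 12 SNAREs outside the symbol rule, Vti1a was the one gene to pass, with cKO higher (8.33%, against 12.6% of all genes). With Ctrl higher 0 passed (against 11.8%). Sv2b, a synaptic vesicle glycoprotein, had 3.68, 3.31 and 0.957 CPM against 0.198, 0.286 and 0.318 CPM (log2 -3.28, SE 0.55, adjusted p = 0.00819), with Ctrl 3 well below Ctrl 1 and Ctrl 2 but above every cKO-labelled library. With total counts the 11 and 5 genes became 3 and 11, where 673 and 4074 of all genes passed. Stxbp5, Napg and Stxbp3 passed in 2, 2 and 3 of the 6 fits that left out 1 library, while Stxbp4, Unc13d, Sv2b and Vps33a passed in all 6.

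**Figure D4:**
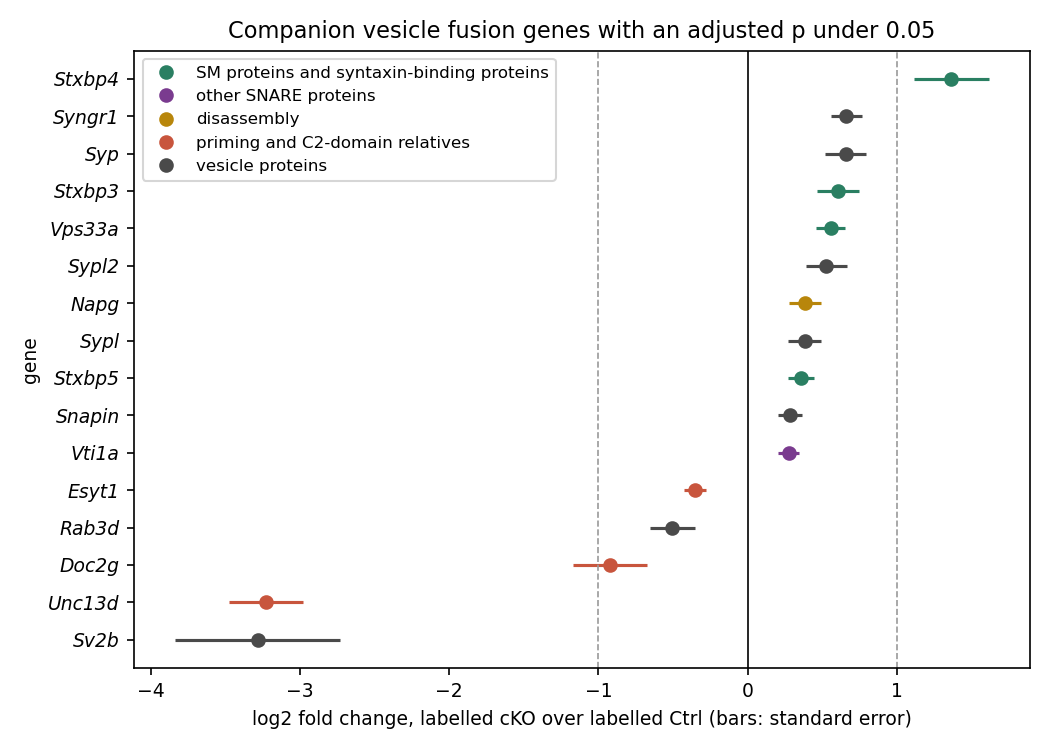
Log2 fold change (x axis, labelled cKO over labelled Ctrl, bars are standard errors) of the 16 other vesicle fusion genes with an adjusted p under 0.05, coloured by role, with dashed lines at a 2-fold difference. Stxbp4 is the one gene beyond the right dashed line, and Unc13d and Sv2b lie far to the left.

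Under the 12 alternative settings tried, the 11 genes past the threshold kept the sign of their fold change wherever they were tested. Syt3, Stx17 and Vamp4 stayed past the threshold in all 12, whereas Stx2 lost it in each of the 6 fits without 1 library and Stx11 and Stx5a in 5 of the 6.

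**Figure D5:**
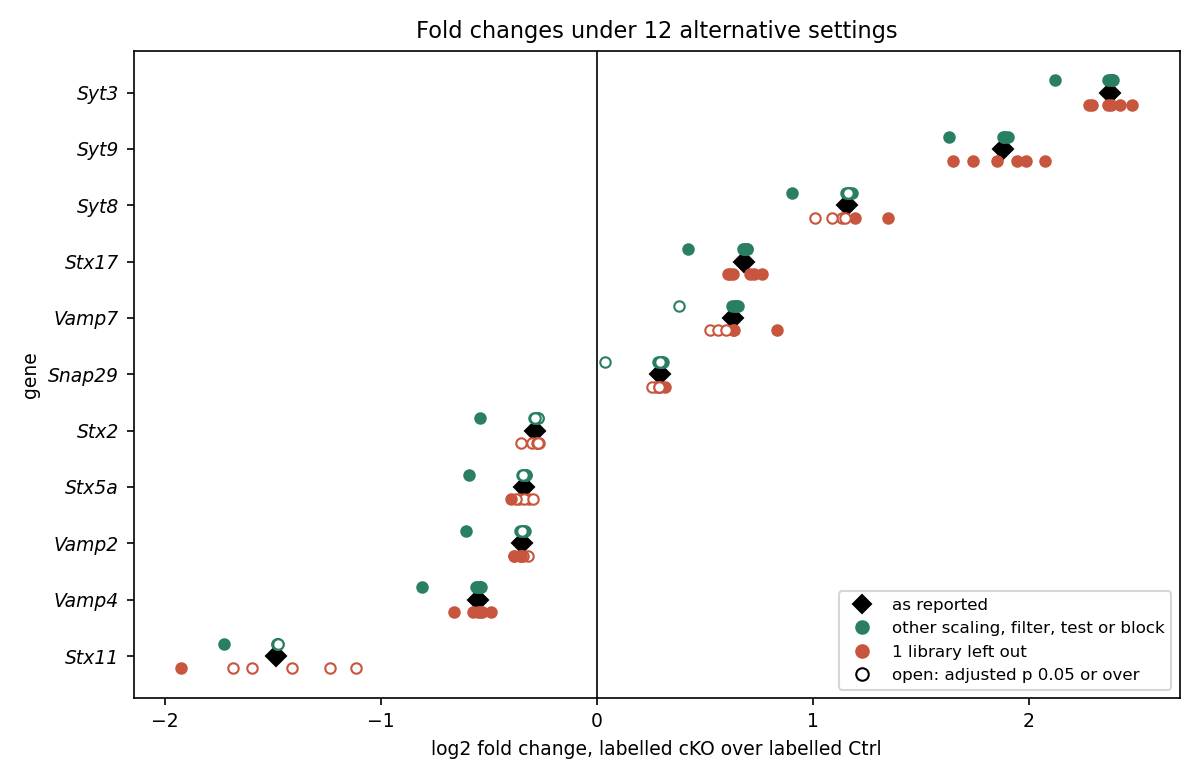
Log2 fold change (x axis) of the 11 genes past the threshold as reported (diamonds), under another scaling, filter, test or block (upper row of each gene) and with 1 library left out (lower row); open circles have an adjusted p of 0.05 or over. No point crosses 0, all points of Syt3, Syt9, Stx17 and Vamp4 are filled, and all lower-row points of Stx2 are open.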

How the data were processed

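Paired-end reads were trimmed (Trimmomatic 0.39), mapped to mm10 (HISAT2 2.1.0) and assigned to genes (featureCounts 1.6.2) by the authors, per the labels' processing notes and the study's methods. The deposited values are raw counts for 24421 genes, 1 table per library. The annotation and the use of strand in counting are not given in the sources used here. Groups and mouse numbers were taken from the titles.

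The test was that of edgeR 4.0.16 under R 4.3.3 (TMM, filterByExpr, quasi-likelihood F-test, Benjamini-Hochberg over the 14180 genes tested), on 3 libraries a group with no covariate. Standard errors come from the F statistic, and precision rests on 4 residual degrees of freedom. The calls used an adjusted p under 0.05, alone or with a fold over 2. The steps were tested on simulated data. Alternatives were DESeq2 1.42.0, its size factors in edgeR, scaling by totals alone, the unfiltered table, a minimum of 10 counts in all libraries, the mouse number as a block and each library left out in turn. Intervals and limits for counts cover counting error only. No library was a repeat of another, since replicates differed by a chi-square of 29.5 to 101 for each degree of freedom.

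Exon lengths, positions and overlaps come from GENCODE M21 (GRCm38), which matched 43 of the 44 symbols. Promoter windows are from RefSeq (GRCm38.p6). Genes named are those past the threshold, the 3 of each family with the highest level per kilobase and those whose call changed under an alternative; other vesicle fusion genes are named where past a 2-fold difference or, for SNAREs, SM proteins and disassembly genes, past the adjusted p, and a few more were chosen after their values were seen. The genes, lists and tests were chosen with earlier results of these data known. The values of 1 of the tested genes are not reported here, though it is part of the counts.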

Additional observations from a re-analysis of the deposited data

How the results depend on the processing

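With 3 mice a group, small differences near the threshold depend on single libraries. Genes past the threshold numbered 6 (cKO higher) and 5 (Ctrl higher). Leaving out 1 library at a time gave 3 to 7 and 1 to 5, with the lowest cKO count of 3 without Ctrl 1, Ctrl 2, cKO 1 or cKO 3, and the Ctrl counts 1 without Ctrl 1 or Ctrl 2, 2 without cKO 1 or cKO 3 and 3 without Ctrl 3. Over all genes, 1786 and 1668 passed, and 766 to 896 and 788 to 947 without Ctrl 1, Ctrl 2, cKO 1 or cKO 3. Total counts gave 9 with Ctrl higher, and 4074 over all genes. The number past a 2-fold difference with Ctrl higher, 1 as reported (Stx11), ranged from 0 to 1 with a library left out, and was 0 with at least 10 counts in every library. Without Ctrl 3 that gene was Syt12, and Stx11 itself passed only without cKO 2. Among the other vesicle fusion genes, 11 and 5 past the threshold became 3 and 11 with total counts and 3 to 10 and 2 to 7 with a library left out, and the 2 past a 2-fold difference with Ctrl higher became 1 with at least 10 counts in every library. Fold changes turned from above 0 to below it with total counts for Stx12 (-0.0521), Stx16 (-0.21), Stx4a (-0.18), Vamp3 (-0.14), Vamp5 (-0.15) and Syt11 (-0.23), since that scaling lowers the median of all genes, and Syt11 was -0.0125 to 0.106 with a library left out, below 0 without Ctrl 2, Ctrl 3 or cKO 1. Total counts brought Snap23 (-0.29), Snap47 (-0.46), Stx7 (-0.44) and Vamp8 (-0.38) past the threshold. The Net39 log2 fold change was 3.95 to 4.31. DESeq2's Wald test lost Stx2 alone. For other changes the cause was not tested.

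Mouse numbers are shared by the groups, but nothing in the titles says that they pair the mice. The deviations of same-numbered libraries correlated at 0.0835, -0.215 and -0.002, and those of differently numbered libraries at -0.217 to 0.194. With so few libraries these values cannot settle whether the mice were paired. With the mouse number as a replicate block, 4 and 1 of the 33 genes passed, 0 past a 2-fold difference with Ctrl higher, and 5 and 3 of the other vesicle fusion genes. Of all genes tested, 927 and 972 then passed, against 1786 and 1668 without the block, and 236 and 448 were past a 2-fold difference, against 302 and 556. Syt8, Syt9 and Stx11 rest on 9 to 54 counts a library.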

Other observations

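Of 15 other vesicle proteins tested, 5 were past the threshold with cKO higher (33.3%, against 12.6% of all genes) and 2 with Ctrl higher (13.3%, against 11.8%), and of 13 priming factors and C2-domain relatives 0 and 3 were (0% and 23.1%). Sypl2 (mitsugumin 29), a protein of the triad junction, had 325.9, 362.4 and 404.2 CPM in the Ctrl-labelled libraries and 595.5, 444.1 and 535.4 CPM in the cKO-labelled ones (log2 0.53, SE 0.14, edgeR adjusted p = 0.0312). Its relatives Sypl, Syp (synaptophysin) and Syngr1 (synaptogyrin 1) were higher in the same libraries, with log2 fold changes of 0.38, 0.66 and 0.66 and adjusted p-values of 0.0432, 0.0167 and 0.00659, and Snapin was higher by 0.28 (adjusted p = 0.0446), while their relative Syngr2 did not pass (log2 0.09, adjusted p = 0.393). Esyt1, which tethers the endoplasmic reticulum to the surface membrane, Rab3d of secretory granules and the C2-domain protein Doc2g were lower, with log2 fold changes of -0.35, -0.50 and -0.92 and adjusted p-values of 0.0164, 0.047 and 0.0359. Among these genes Syngr1 alone passed in all 12 alternative settings. With 1 library left out, Syp passed in 4 of 6 fits, Esyt1 in 3, Sypl2 and Rab3d in 2 and Sypl, Snapin and Doc2g in 1, with adjusted p-values of up to 0.145. With total counts, Sypl2, Sypl, Syp and Snapin were at log2 0.27, 0.13, 0.41 and 0.03 and did not pass. Of the 12 fibre markers, 9 were higher in the same libraries as Sypl2 and Myh1 was lower there, and their part was not tested.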
